A study of Homo sapiens with 4 samples.

Results

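The genes described here make the machinery that carries proteins into mitochondria, and the chaperones and peptidases that receive them in the matrix. They were chosen by name: every row whose symbol is TIMM or TOMM followed by a number, with an optional A, B or L, and 15 further named genes of the same pathway. The rule found 39 of the 25411 genes in the tables, on 18 chromosomes. It reads names and no measured value, but it was set with earlier results of these data known. The RNA came from BEAS-2B, a cell line of human bronchial epithelium in long-standing laboratory use. Cadmium cultures had received 5 µM cadmium chloride for 72 h (2 libraries, replicates 1 and 2). Control cultures had grown for 72 h without added metal (2 libraries, replicates 1 and 2). No other agent or genetic change is named in the labels.

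Nearly all mitochondrial proteins are encoded in the nucleus, made in the cytosol and imported. The TOM complex of the outer membrane is the common entry gate, with receptors that bind precursors and a channel that lets them through. Behind it the paths part: the SAM complex inserts barrel-shaped outer membrane proteins, a disulfide relay and the small TIM chaperones serve the intermembrane space, TIM22 inserts carrier proteins, and TIM23 passes precursors with a cleavable presequence to the matrix. There a motor built around the chaperone HSPA9 pulls them in, a peptidase removes the presequence, and the HSPD1 and HSPE1 chaperonin folds the product.

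Reads assigned to genes numbered 29937242 and 15537382 in cadmium replicates 1 and 2, and 26529403 and 8609243 in control replicates 1 and 2. Unless RPKM is named, a level is a CPM value, for which counts were brought to a common library size with TMM factors. A count of 3 reads stood for 0.098 to 0.19 CPM in the cadmium libraries and 0.115 to 0.356 CPM in the control libraries, and such floors cover counting error only. Sampling noise did not cover the gap between libraries of the same group: chi-square per gene came to 7.72 for the cadmium pair and 11.8 for the control pair. The labels do not say whether replicates came from different cultures, and the spread behind each p-value may therefore be technical. The labels place the cadmium libraries under experiment 2 and the control libraries under experiment 1, so treatment and experiment cannot be told apart. All 6 genes taken as signs of exposure rose, among them the metallothionein gene MT2A with 3596 and 3315 CPM in cadmium libraries against 277 and 378 CPM in control libraries. Of 8 airway epithelial markers, KRT8 and KRT18 were abundant, while KRT5 and TP63 had at most 1 read in any library. KRT19 had 7 and 3 reads in cadmium libraries and 1 and 0 in control libraries. CDH1 was low, with 0.91 and 0.95 CPM in cadmium libraries against 0.42 and 0.12 CPM in control libraries, and did not pass. KRT7 fell, with 245.5 and 288 CPM in cadmium libraries against 523.5 and 558 CPM in control libraries (adjusted p = 0.00234, edgeR). EPCAM rose, with 5.95 and 5.06 CPM in cadmium libraries against 2.04 and 2.38 CPM in control libraries (adjusted p = 0.0131, but 0.0955 without cadmium replicate 1). The 8 epithelial markers summed to 1087 and 1196 CPM in cadmium libraries and 1270 and 1475 CPM in control libraries, and their part in the results was not tested. Of 6 fibroblast markers, COL3A1 and DCN were at 0 in every library. COL1A2 had 36 and 19 reads in cadmium libraries and 58 and 10 in control libraries. LUM had 12 and 6 reads in cadmium libraries and 5 and 1 in control libraries. COL1A1, however, had 3263 and 3068 CPM in cadmium libraries against 4379 and 3538 CPM in control libraries. PDGFRB had 187 and 205 CPM in cadmium libraries and 162 and 185 CPM in control libraries. Fibroblast markers summed to 3451 and 3275 CPM in cadmium libraries and 4543 and 3724 CPM in control libraries, most of it from COL1A1. Leukocyte markers summed to 12.3 and 8.42 CPM in cadmium libraries and 7.15 and 11.6 CPM in control libraries, and endothelial markers to less than 1 CPM in each library. Nuclear-retained RNAs, taken as signs of RNA quality, summed to 1267 and 1303 CPM in cadmium libraries against 720 and 894.5 CPM in control libraries. In bulk RNA, fewer cells of a type and less RNA per cell cannot be told apart.

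Promoter windows were read from RefSeq (GRCh38.p14), from 250 bases before to 50 bases after an annotated start. Of the 39 genes 36 matched, with 40 windows. A few of them are shown, because they hold searched motifs at genes on which the results turn: the chaperonin pair, which did not pass the test, and TOMM40 and TIMM22, which fell. Capitals mark in HSPD1 a heat shock element (GAA, TTC and GAA, or TTC, GAA and TTC, with any 2 bases between), in HSPE1 an E-box (CACGTG), in TOMM40 the CCAAT boxes (CCAAT) and in TIMM22 an amino acid response element (TGATGNAA). All were searched on both strands, and the windows read 5′ to 3′ along the gene.
HSPD1, chr2:197499791-197500090, minus strand: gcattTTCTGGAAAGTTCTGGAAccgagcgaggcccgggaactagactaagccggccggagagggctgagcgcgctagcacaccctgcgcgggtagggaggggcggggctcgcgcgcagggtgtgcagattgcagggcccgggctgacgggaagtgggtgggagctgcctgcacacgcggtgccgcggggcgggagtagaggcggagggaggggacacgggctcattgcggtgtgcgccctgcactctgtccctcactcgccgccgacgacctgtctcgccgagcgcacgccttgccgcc
HSPE1, chr2:197500129-197500428, plus strand: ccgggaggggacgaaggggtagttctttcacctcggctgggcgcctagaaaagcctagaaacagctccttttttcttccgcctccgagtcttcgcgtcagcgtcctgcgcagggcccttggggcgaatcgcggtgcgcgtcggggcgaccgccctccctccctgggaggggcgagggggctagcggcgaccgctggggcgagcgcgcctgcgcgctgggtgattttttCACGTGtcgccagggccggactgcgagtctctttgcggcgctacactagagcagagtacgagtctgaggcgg
TOMM40, chr19:44891004-44891303, plus strand: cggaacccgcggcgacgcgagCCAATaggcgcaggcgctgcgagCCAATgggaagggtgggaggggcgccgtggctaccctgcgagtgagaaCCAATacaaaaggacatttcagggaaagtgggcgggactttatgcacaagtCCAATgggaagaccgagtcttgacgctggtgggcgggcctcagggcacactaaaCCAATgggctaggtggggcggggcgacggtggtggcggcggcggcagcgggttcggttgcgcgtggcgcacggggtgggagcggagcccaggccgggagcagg
TIMM22, chr17:996879-997178, plus strand: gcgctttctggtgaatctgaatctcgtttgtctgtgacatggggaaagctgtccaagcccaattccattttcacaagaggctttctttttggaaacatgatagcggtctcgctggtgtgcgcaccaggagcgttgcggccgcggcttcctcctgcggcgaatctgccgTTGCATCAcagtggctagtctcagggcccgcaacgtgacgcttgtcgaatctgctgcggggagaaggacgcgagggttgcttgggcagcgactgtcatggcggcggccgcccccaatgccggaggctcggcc
The HSPD1 match is a run of 2 overlapping elements that begin at positions -245 and -240 from this start, the further downstream of the 2 in the table. Only 0.49% of all 35116 windows hold the element, and HSPD1 was the 1 member with it. HSPD1 and HSPE1 lie head to head: the window at the other HSPD1 start shares 204 bases with that of HSPE1, and those starts are 105 bases apart. TOMM40 holds 5 CCAAT boxes, at positions -229, -206, -158, -107 and -53 from the start. TIMM17A, which did not pass the test, holds 5 as well, and the share of all windows with 5 was not counted. The E-box of HSPE1 begins at -22 and the response element of TIMM22 at -82. Of member windows 30.0% hold a CCAAT box, against 34.6% of all windows. An E-box stands in 15.0% of member windows (HSPA9, HSPD1, HSPE1, TIMM10, TIMM8A and TOMM20) against 7.26% of all windows. The HSPD1 and HSPE1 matches are 1 site, at chromosome 2 from 197500357 to 197500362, in the bases that their windows share. For the amino acid response element the shares are 5.0% (PMPCB and TIMM22) and 3.62%, for the NRF1 motif (AT with GCGC on either side) 2.5% (CHCHD4) and 1.24%, and for the short palindrome within the heat shock element (GAANNTTC or TTCNNGAA) 10.0% and 13.5%. A match describes the letters only.

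Of 38 import genes tested, 13 fell with cadmium and 25 did not pass, and 0 rose (edgeR's quasi-likelihood test, Benjamini-Hochberg adjusted p under 0.05 over 13663 genes). Over all tested genes 7.66% were called lower and 8.85% higher. At an unadjusted p under 0.05, 22 members were lower and 0 higher. DESeq2 called 11 lower and 0 higher (6.58% and 6.92% of all genes), and limma-voom 13 and 0 (8.84% and 10.2%). The median log2 fold change of the tested members was -0.28, or 82.6% of the control level, beside 0.0019 over all tested genes, and 36 of 38 values were below 0. In 28 of 38 both cadmium libraries lay below both control libraries, which 30.8% of all tested genes did, and in 1 both lay above, as in 31.3% of all. Summed over the 39 genes, the level was 2668 and 2792 CPM in cadmium libraries and 3419 and 3267 CPM in control libraries. The remaining member, TOMM20L, a relative of the TOMM20 receptor, had 2 and 2 reads in cadmium libraries and 2 and 1 in control libraries and was not tested. With library size alone as the scale, 1445 genes were higher and 682 lower (10.6% and 4.99%), against 1209 and 1046 with TMM factors, and 11 members fell. Without cadmium replicate 1, and without cadmium replicate 2, 6 members fell (1.84% and 1.83% of all genes were then lower, 2.89% and 4.05% higher). Without control replicate 1 and without control replicate 2, 12 and 15 fell (7.16% and 11.7% lower, 7.59% and 14.1% higher). With the replicate number as a block 11 fell (5.94% lower, 7.85% higher), and with the numbers crossed 14 fell (10.8% lower, 11.4% higher).

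**Figure D1:**
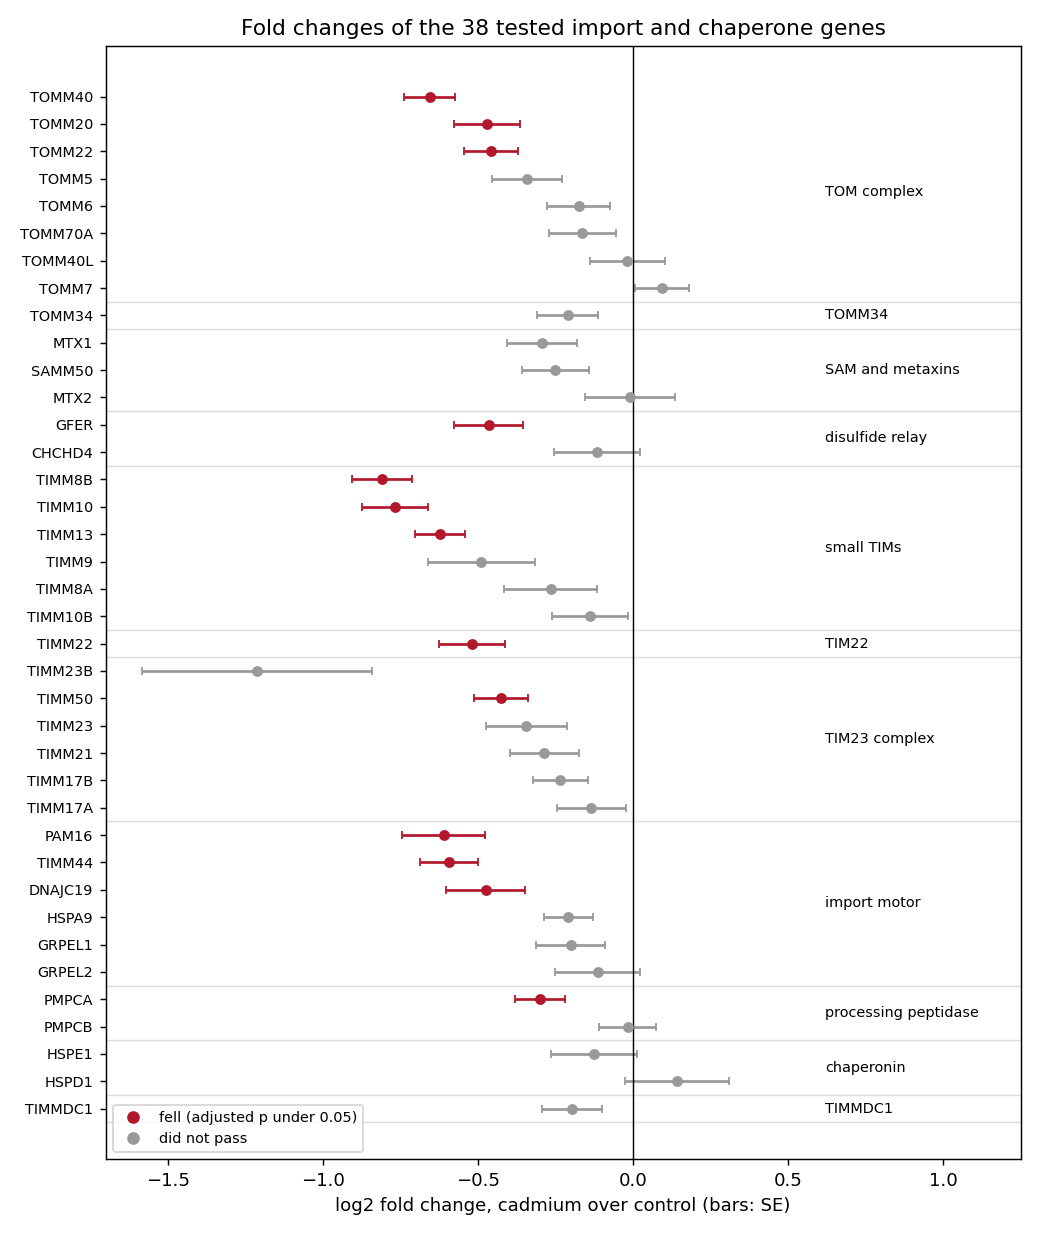
Log2 fold change, cadmium over control, of the 38 tested genes (x axis; bars are SE) by role (rows). The 13 red points passed the test, all to the left of 0, from TIMM8B at -0.81 to PMPCA at -0.30; grey points did not pass, TIMM23B among them at -1.21 with a wide SE.

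In the TOM complex 3 of 8 tested genes fell: the channel gene TOMM40 and the receptor genes TOMM20 and TOMM22. TOMM40 (chromosome 19, 45394477 to 45406946 in hg19, as deposited) had 4209 and 2331 reads in cadmium libraries and 5904 and 1867 in control libraries. That is 138 and 147 CPM with cadmium against 227 and 222 CPM in control. The groups did not overlap, and TOMM40 fell by 0.66 in log2 units (SE 0.082, adjusted p = 0.00451, edgeR). TOMM22, the central receptor that also holds the complex together, had 85.2 and 91.4 CPM with cadmium against 123 and 119 CPM in control, and fell by 0.46 (SE 0.088, adjusted p = 0.0137). TOMM20, the receptor for presequences, had 114 and 106 CPM with cadmium against 139 and 168 CPM in control. It fell by 0.47 (SE 0.11, adjusted p = 0.0227). The 2 controls of TOMM20 stood further apart than its 2 cadmium libraries. The remaining 5 did not pass. They were TOMM70A, the receptor for carrier proteins (log2 fold change -0.16, adjusted p = 0.328), the small subunits TOMM5 (-0.34, 0.0719), TOMM6 (-0.17, 0.265) and TOMM7 (0.094, 0.496), and TOMM40L, a second channel gene (-0.018, 0.936). TOMM7 was the 1 member with both cadmium libraries, at 86.3 and 82.4 CPM, above both controls, at 79.4 and 78.7 CPM. TOMM20 without either cadmium replicate (adjusted p = 0.0527 and 0.109) and TOMM22 without cadmium replicate 1 (adjusted p = 0.1196) missed the threshold, and TOMM5 passed without control replicate 2 (adjusted p = 0.0101). TOMM34, a cytosolic cochaperone named with the family, had 102 and 96.4 CPM with cadmium against 123 and 106 CPM in control (log2 fold change -0.21, SE 0.099, adjusted p = 0.173), and passed without control replicate 2 (adjusted p = 0.0394).

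Of the 3 genes for sorting proteins into the outer membrane 0 passed with edgeR, DESeq2 or limma-voom, and 2 had an unadjusted p under 0.05. MTX1, a metaxin that works with the SAM complex, had 29.1 and 26.6 CPM with cadmium against 34.0 and 34.5 CPM in control (log2 fold change -0.29, SE 0.11, adjusted p = 0.108). SAMM50, the core of that complex, came to -0.25 (adjusted p = 0.141), with 48.4 and 55.1 CPM with cadmium and 63.6 and 58.9 CPM in control. MTX2 stood at 19.4 and 16.4 CPM with cadmium and 18.5 and 17.6 CPM in control, with overlapping groups and a log2 fold change of -0.0090.

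In the disulfide relay of the intermembrane space 1 of 2 genes fell. GFER, the oxidase that keeps the relay charged, had 42.8 and 37.2 CPM with cadmium against 53.9 and 57.0 CPM in control. It fell by 0.47 in log2 units (SE 0.11, adjusted p = 0.0269). CHCHD4, the human MIA40 homologue that passes disulfides to imported proteins, had 17.7 and 20.6 CPM with cadmium against 21.1 and 20.1 CPM in control. Its groups overlapped (log2 fold change -0.12, SE 0.14, adjusted p = 0.5998). GFER no longer passed without cadmium replicate 1 (adjusted p = 0.0578) or cadmium replicate 2 (adjusted p = 0.215).

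The small TIM chaperones, which escort hydrophobic precursors across the intermembrane space, had the lowest median log2 fold change of the role groups with more than 1 gene, -0.56, and 3 of 6 fell. TIMM8B lies on chromosome 11 from 111955539 to 111957522 (hg19). It had 1314 and 636 reads in cadmium libraries and 1880 and 621 in control libraries, or 42.9 and 40.2 CPM against 72.2 and 73.8 CPM. It fell by 0.81 in log2 units, to 57.1% of the control level (SE 0.097, adjusted p = 0.00394). Its row shares 336 bases with that of C11orf57 on the opposite strand. TIMM10 (chromosome 11, 57295936 to 57298232) had 33.1 and 35.9 CPM with cadmium against 56.2 and 61.4 CPM in control, and fell by 0.77 (SE 0.11, adjusted p = 0.00625). TIMM13, the partner of the TIMM8 proteins, on chromosome 19 from 2425622 to 2427914, had 128 and 134 CPM with cadmium against 205 and 198 CPM in control. It fell by 0.62 (SE 0.081, adjusted p = 0.00493). In each of these genes the gap between the groups was wider than the spread within either. TIMM9, which forms a complex with TIMM10, had 9.02 and 7.66 CPM with cadmium against 11.6 and 12.0 CPM in control and did not pass (log2 fold change -0.49, SE 0.17, adjusted p = 0.0865). TIMM8A (-0.27, adjusted p = 0.249) and TIMM10B (-0.14, adjusted p = 0.466) did not pass either. Both cadmium libraries lay below both controls in all 6 genes, an order that 30.8% of all tested genes had. In TIMM10B the margin was small, with 26.13 and 26.01 CPM with cadmium against 30.58 and 26.37 CPM in control. Without control replicate 1 the log2 fold change of TIMM10B was -0.016. Summed over the 6, the level was 251 and 257 CPM with cadmium against 391 and 385 CPM in control.

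TIMM22, the channel of the carrier path, had 52.9 and 55.3 CPM with cadmium against 83.1 and 71.3 CPM in control. It fell by 0.52 in log2 units (SE 0.11, adjusted p = 0.0166), and missed the threshold without cadmium replicate 1 (adjusted p = 0.0934) or cadmium replicate 2 (adjusted p = 0.0548).

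In the TIM23 complex 1 of 6 genes fell, TIMM50, the receptor that takes over presequences from the outer membrane. TIMM50 had 131 and 132 CPM with cadmium against 169 and 186 CPM in control, and fell by 0.42 (SE 0.086, adjusted p = 0.0162). TIMM23, the channel, had 17.97 and 18.1 CPM with cadmium against 24.0 and 21.5 CPM in control and did not pass (log2 fold change -0.34, SE 0.13, adjusted p = 0.103). TIMM23B, a near-identical copy, had 22 and 16 reads with cadmium against 46 and 19 in control (log2 fold change -1.21, SE 0.37, adjusted p = 0.0584). TIMM23B passed with level-dependent scaling (-1.55, adjusted p = 0.0310) and with no filter, with adjusted p from 0.0310 to 0.394 over its alternatives. Its row overlaps that of TIMM23, so the split of reads between them is uncertain. The rows of TIMM23 and TIMM23B together gave 18.7 and 19.1 CPM with cadmium against 25.7 and 23.8 CPM in control. The TIMM23B row also overlaps that of NCOA4, by 14450 bases on the same strand. NCOA4 had 4403 and 2477 reads with cadmium and 3913 and 1115 in control, and its part in the TIMM23B counts was not tested. The other channel genes TIMM17B (-0.23, adjusted p = 0.107) and TIMM17A (-0.13, adjusted p = 0.434), and TIMM21, which links the complex to TOM (-0.29, adjusted p = 0.111), did not pass. TIMM50 lost its call without cadmium replicate 1 (adjusted p = 0.0928) or cadmium replicate 2 (adjusted p = 0.0790), and TIMM23 gained one without control replicate 2 (adjusted p = 0.0417).

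In the import motor 3 of 6 genes fell, the membrane anchor and regulators TIMM44, PAM16 and DNAJC19, while the chaperone HSPA9 did not pass. TIMM44, which ties HSPA9 to the channel, on chromosome 19 from 7991603 to 8008708, had 75.1 and 70.3 CPM with cadmium against 105 and 115 CPM in control. It fell by 0.59 in log2 units (SE 0.093, adjusted p = 0.00852). PAM16, a regulator of the motor, had 24.5 and 20.5 CPM with cadmium against 36.4 and 32.2 CPM in control, and fell by 0.61 (SE 0.13, adjusted p = 0.0205). A read-through row, CORO7-PAM16, covers the same bases and had 333 and 254 reads with cadmium against 121 and 179 in control, so the 2 rows may share reads. CORO7-PAM16 did not pass (log2 fold change 0.18, SE 0.91, adjusted p = 0.916), but without control replicate 2 it was higher by 1.51 (adjusted p = 0.00207). Together they gave 35.4 and 36.6 CPM with cadmium against 41.1 and 53.5 CPM in control, a log2 ratio of means of -0.39. DNAJC19, a J protein of the inner membrane, had 20.2 and 23.9 CPM with cadmium against 30.4 and 30.5 CPM in control, and fell by 0.47 (SE 0.13, adjusted p = 0.0394). HSPA9 itself, the matrix member of the HSP70 family, had 347 and 373 CPM with cadmium against 416 and 416 CPM in control (log2 fold change -0.21, SE 0.078, adjusted p = 0.101). The nucleotide exchange factors GRPEL1 (-0.20, SE 0.11, adjusted p = 0.247) and GRPEL2 (-0.11, SE 0.14, adjusted p = 0.605) did not pass. DNAJC19 without cadmium replicate 1, cadmium replicate 2 or control replicate 1 (adjusted p = 0.352, 0.0828 and 0.0603) and PAM16 without cadmium replicate 2 (adjusted p = 0.141) then missed the threshold. DNAJC19 also missed the threshold with a replicate block, library size alone and DESeq2.

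Of the matrix processing peptidase, the catalytic subunit gene PMPCB had 68.6 and 65.6 CPM with cadmium and 69.1 and 66.5 CPM in control (log2 fold change -0.016, SE 0.092, adjusted p = 0.924). The PMPCB row shares 2213 bases with that of DNAJC2 on the opposite strand. DNAJC2 had 804 and 428 reads with cadmium and 921 and 248 in control. PMPCA, the partner of PMPCB, had 121 and 118 CPM with cadmium against 144 and 151 CPM in control. PMPCA fell by 0.30 (SE 0.082, adjusted p = 0.0419). This call was the weakest of the 13 and was lost in 8 of 13 alternatives, without cadmium replicate 1, cadmium replicate 2 and control replicate 2 among them (adjusted p = 0.217, 0.267 and 0.0563). TIMMDC1, an assembly factor of respiratory complex I named for its likeness to TIM proteins, had 55.8 and 61.6 CPM with cadmium against 67.8 and 66.4 CPM in control (log2 fold change -0.20, SE 0.098, adjusted p = 0.199).

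The chaperonin genes, best known as targets of mitochondrial stress signalling, did not pass in either direction. HSPD1 had 260 and 325 CPM with cadmium against 303 and 225 CPM in control (log2 fold change 0.14, SE 0.17, adjusted p = 0.598, edgeR). HSPE1 had 54.4 and 63.8 CPM with cadmium against 71.9 and 55.6 CPM in control (log2 fold change -0.13, SE 0.14, adjusted p = 0.573). Both were higher in control replicate 1 than in control replicate 2, and in cadmium replicate 2 than in cadmium replicate 1, and the groups overlapped. At an unadjusted p under 0.05 0 of the 2 changed, and DESeq2 and limma-voom called 0. Without control replicate 1 their log2 fold changes were 0.38 and 0.083, and without control replicate 2 they were -0.052 and -0.29. Among 11 cytosolic chaperone genes for precursors, HSPA8 had 1096 and 1467 CPM with cadmium against 1256 and 926 CPM in control, and HSP90AA1 had 903 and 1112 CPM with cadmium against 1170 and 586 CPM in control, both in the same order of libraries within each group. BAG1, with 37.5 and 35.4 CPM with cadmium against 44.6 and 53.0 CPM in control, had the opposite order in both groups. The rows of HSPD1 and HSPE1 share 278 bases on opposite strands, and the use of strand in counting is not given in the sources used here.

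**Figure D2:**
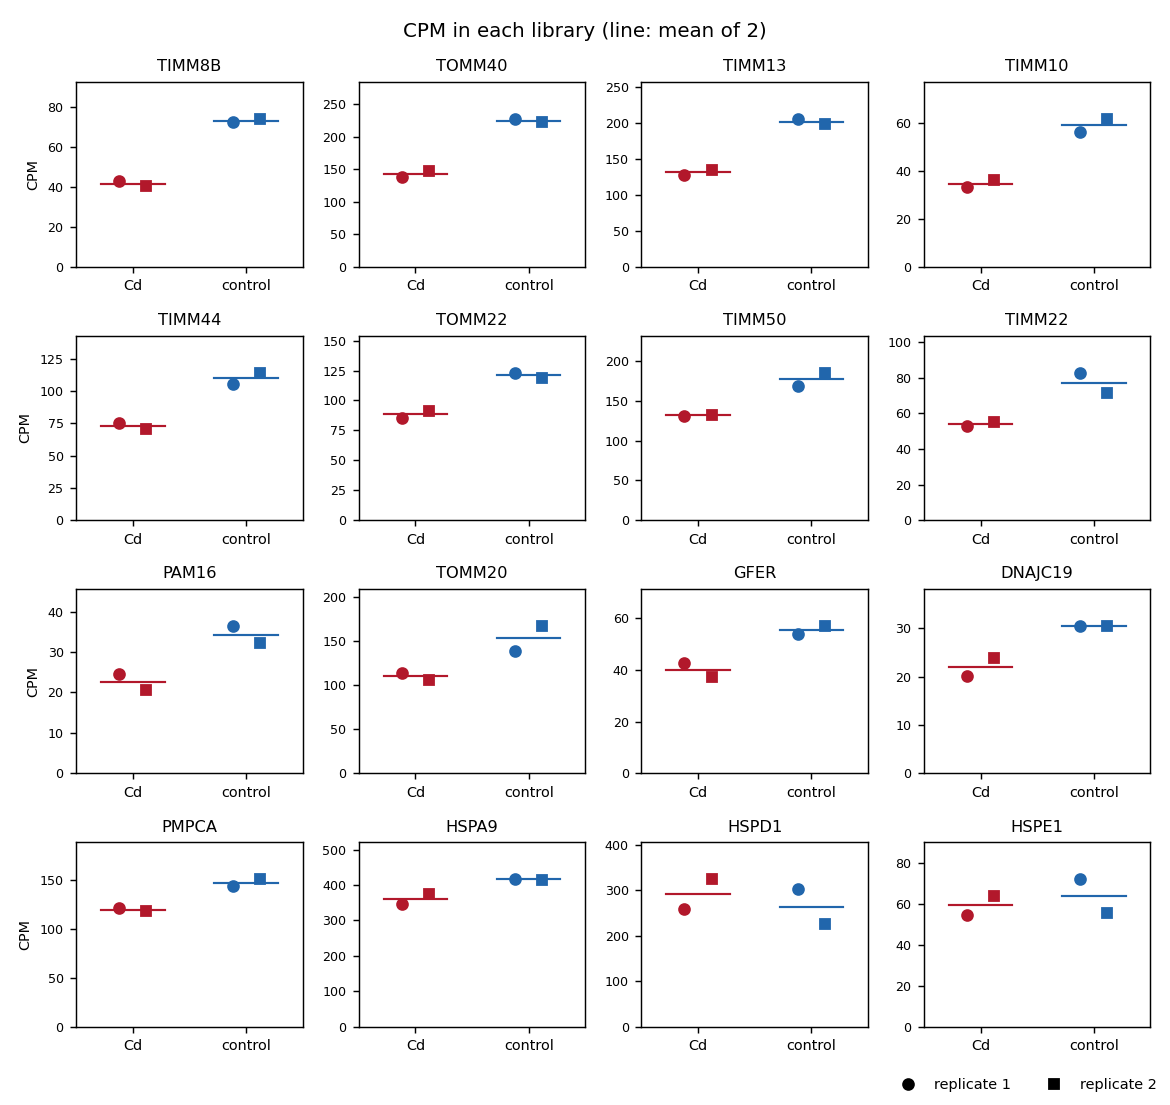
CPM in each library (y axis, from 0) for the 13 genes that fell and for HSPA9, HSPD1 and HSPE1; circles are replicate 1, squares replicate 2, lines the mean of 2. The 13 were chosen for their calls in these same libraries. In each, both red cadmium points lie below both blue control points, as in TOMM40 at 138 and 147 against 227 and 222 CPM. Of all tested genes 30.8% had this order. HSPD1 and HSPE1 overlap.

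Levels between genes were compared in RPKM, which the authors had divided by length. By the mean of the 4 libraries the order ran from TOMM5 (126 RPKM), HSPD1 (105), HSPA9 (97.4), TOMM40 (93.1) and TOMM7 (92.4) down to TIMM9 (8.23), GRPEL2 (7.78), TOMM40L (7.73), TIMM23B (0.535) and TOMM20L (0.140). TOMM40 had 71.3 and 75.6 RPKM in cadmium libraries against 114 and 112 RPKM in control libraries, and TOMM7 99.2 and 93.6 RPKM against 88.8 and 88.0 RPKM. Hence TOMM40 stood above TOMM7 in both controls and below it in both cadmium libraries. HSPD1 ranged from 84.5 to 124 RPKM over the 4 libraries, a spread that covers the 4-library means of HSPA9, TOMM40 and TOMM7. The 3 least abundant of the small TIM genes, TIMM9, TIMM10B and TIMM8A (12.6 RPKM), stood well below TIMM13 (73.2), TIMM8B (60.9) and TIMM10 (60.8), which are the 3 that fell.

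Abundant genes and short genes were called lower with cadmium more often than other genes. Over all 13663 tested genes the log2 fold change had a Spearman correlation of -0.38 with the mean RPKM and 0.21 with the length behind the RPKM (13661 genes), as a description across genes that share the 4 libraries. In the quartile of tested genes with the highest RPKM 19.2% were called lower and 4.36% higher, against 0.849% and 12.4% in the lowest quartile. That top quartile held 22 of the tested members, of which 11 fell, and the next held 12, of which 2 fell (8.11% of all genes there). By length, the shortest quartile held 23 members, of which 7 fell, with 13.2% of all its genes lower, and the second held 9, of which 5 fell, with 8.08% lower. Among the members the correlations were -0.14 with RPKM and 0.21 with length. Of 4 nuclear-retained RNAs, MALAT1 and NEAT1 moved the other way and rose by 0.87 and 0.59 in log2 units (adjusted p = 0.00188 and 0.0228, edgeR). KCNQ1OT1 had 5.88 and 8.48 CPM with cadmium against 2.34 and 6.30 CPM in control. Its groups overlapped and it did not pass (log2 fold change 0.88, adjusted p = 0.238, edgeR). MEG3 had 0 reads in every library. NEAT1 missed the threshold without cadmium replicate 2 (adjusted p = 0.0628). With a scaling that follows the level (loess), 13 members fell, 12 of them among the 13 named here, with a median log2 fold change of -0.24, while 5.38% of all genes were lower and 7.58% higher. The part of length and RNA quality in the falls was not tested.

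**Figure D3:**
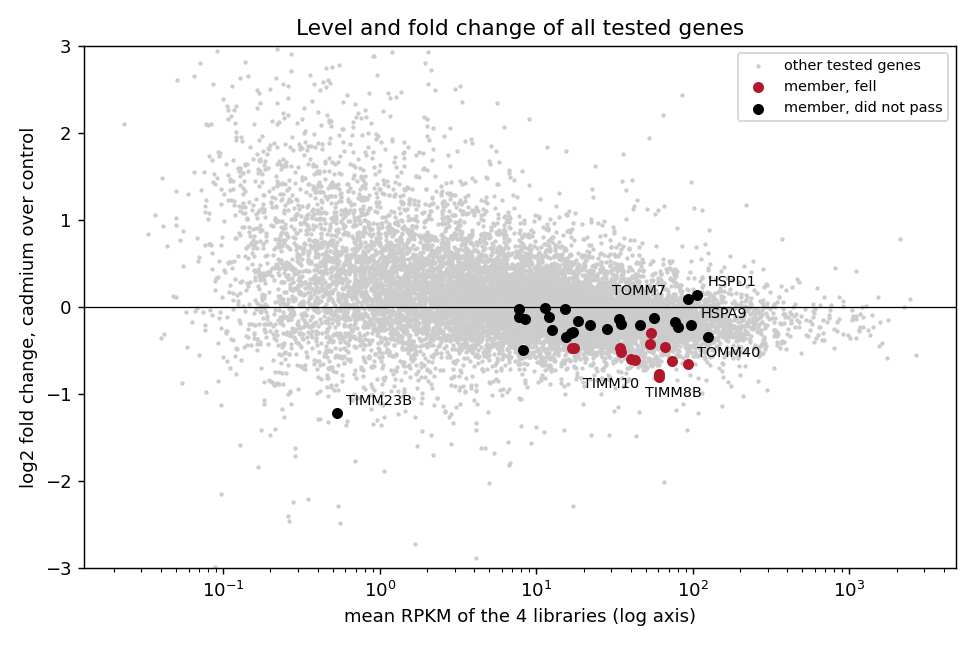
Mean RPKM of the 4 libraries (x axis, log scale) against log2 fold change, cadmium over control (y axis), for all tested genes; 40 genes beyond 3 on the log2 scale lie outside the axis. The cloud sinks towards high levels, and the members that fell (red) lie in its lower part at 16.8 to 93.1 RPKM.

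Other genes that act with the import machinery were measured alongside, and their shares called lower stand beside 7.66% of all tested genes. Of 8 partners outside the naming rule 3 fell (37.5%): DNAJC15, a relative of DNAJC19, by 0.45 (adjusted p = 0.0331), ROMO1, a small partner of TIM23, by 0.42 (adjusted p = 0.0152), and C19orf52, now named TIMM29 and part of TIM22, by 0.38 (adjusted p = 0.0372). DESeq2 called 1 of the 8. Of 8 MICOS genes, which shape the cristae, 2 fell (25.0%): DNAJC11 fell by 0.58 (adjusted p = 0.0104) and MINOS1 by 0.38 (adjusted p = 0.0397). Of 14 mitochondrial protease genes 2 fell (14.3%): PARL fell by 0.41 (adjusted p = 0.0421) and AFG3L2 by 0.34 (adjusted p = 0.0240), and the list median was -0.025. Among 6 further mitochondrial chaperone genes 0 passed with edgeR or limma-voom, 3 had an unadjusted p under 0.05 and DESeq2 called 1 lower. The nearest was PHB2, a prohibitin, at -0.31 (adjusted p = 0.0517), which passed without control replicate 1 (adjusted p = 0.0126). Of 12 regulators of mitochondrial and integrated stress 2 fell (16.7%): ATF5, linked to the mitochondrial unfolded protein response, fell by 0.68 (adjusted p = 0.0313) and TRIB3, a target of ATF4, by 0.59 (adjusted p = 0.0160). In the same list CEBPB, a transcription factor of stress responses, had 256 and 265 CPM with cadmium against 172 and 224.5 CPM in control and did not pass with edgeR (log2 fold change 0.40, adjusted p = 0.0583). DESeq2 and limma-voom called it higher (adjusted p = 0.0239 and 0.0422). Of 11 cytosolic precursor chaperone genes 1 fell (9.09%), the cochaperone gene BAG1, by 0.41 (adjusted p = 0.04995). Of 13 genes of mitochondrial biogenesis and mass 1 fell (7.69%), GABPB1, a subunit of a nuclear factor for mitochondrial genes, by 0.58 (adjusted p = 0.0225). The shares of these last 2 lists lie near that of all genes. Each of these 11 calls was lost when 1 library was left out, for example all 3 partners without cadmium replicate 1 (adjusted p = 0.220 for DNAJC15, 0.0605 for ROMO1 and 0.217 for C19orf52) and DNAJC11 without it (adjusted p = 0.0643). The largest adjusted p was 0.239 for PARL, 0.178 for AFG3L2 and 0.249 for BAG1, all without cadmium replicate 2, and 0.218 for MINOS1 without it. It was 0.205 for ATF5 and 0.185 for GABPB1 without cadmium replicate 1, and 0.0815 for TRIB3 without cadmium replicate 2.

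The import genes did not stand alone among mitochondrial genes. Of 77 mitochondrial ribosomal protein genes 27 fell and 0 rose, with a median log2 fold change of -0.28, and of 39 complex I subunit genes 12 fell and 0 rose, with a median of -0.25 (edgeR). At an unadjusted p under 0.05, 0 of either list was higher, and DESeq2 and limma-voom called 0 higher. As shares these are 35.1% and 30.8%, beside 34.2% of the import genes. Without cadmium replicate 1 the medians of these lists were -0.26 and -0.26, against -0.27 for the import genes. Without cadmium replicate 2 they were -0.28 and -0.23, against -0.27. Fewer genes of each list passed in these fits, which leave 1 cadmium library. With library size alone 16 of 77 and 6 of 39 fell, against 11 of 38 import genes and 4.99% of all tested genes. The shares were then less alike than in the main fit. No test of a difference between these lists was made.

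**Figure D4:**
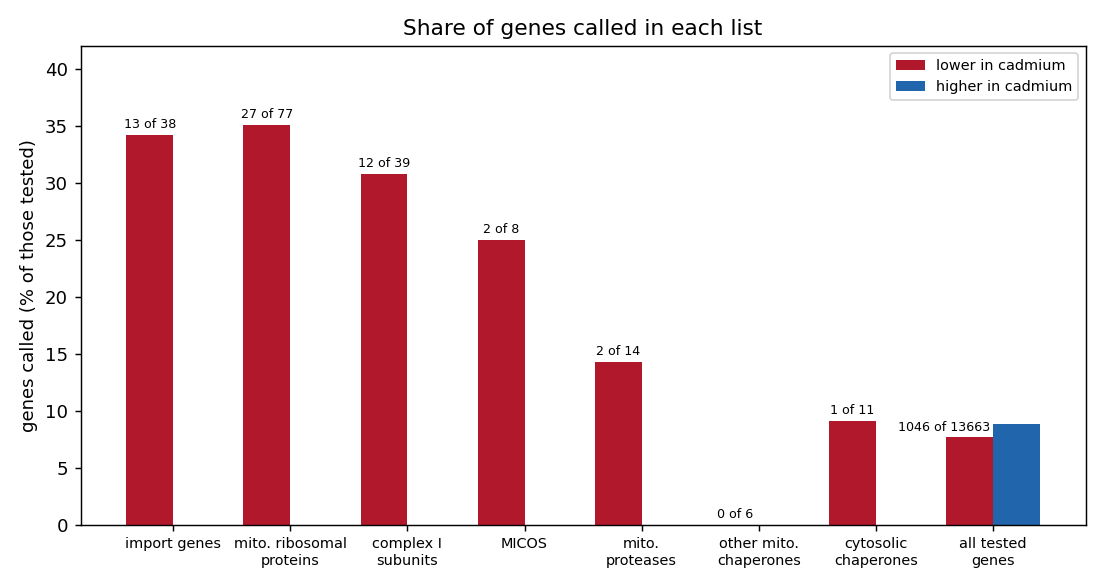
Share of tested genes called lower (red) or higher (blue) with cadmium in each list (y axis, percent, from 0), with the counts called lower. Import genes, mitochondrial ribosomal proteins and complex I subunits stand between 30.8% and 35.1%, against 7.66% of all tested genes.

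In all, 10 pairs of partners or paralogs were compared by the log2 ratio of their CPM in each library (with 0.5 CPM added), where 2 against 2 libraries cannot give an exact permutation p below 0.333. The ratio of TOMM40 to TOMM40L was 2.46 and 2.49 with cadmium against 3.06 and 3.18 in control, a difference of -0.65. For TIMM8A to TIMM8B it was -1.79 and -1.67 with cadmium against -2.20 and -2.38 in control, a difference of 0.56. The ratio of CHCHD4 to GFER differed by 0.36, that of PMPCA to PMPCB by -0.28, that of MTX1 to MTX2 by -0.28, that of TIMM9 to TIMM10 by 0.28 and that of HSPE1 to HSPD1 by -0.26 (exact permutation p = 0.333 for each, 2-sided). The ratio of GRPEL1 to HSPA9, a cochaperone and its chaperone, was -3.35 and -3.33 with cadmium against -3.29 and -3.43 in control, and the groups overlapped. They overlapped for TIMM17A to TIMM17B and for GRPEL1 to GRPEL2 as well.

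The authors' deposited table, made from the same libraries, calls 13 members lower at an adjusted p under 0.05 and 0 higher, and these are the 13 that edgeR called. Of all 25411 rows in the authors' deposited table, 3.93% are called lower and 3.87% higher. These rows include genes with too few reads to be tested here, so the shares are not comparable with those over 13663 tested genes. The authors' deposited table gives TIMM8B a log2 ratio of -0.75 (adjusted p = 1.76e-07), TOMM40 -0.63 (6.86e-08) and DNAJC19 -0.42 (0.0496).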

How the data were processed

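RNA from 4 libraries of BEAS-2B cells was measured, 2 with 5 µM cadmium chloride for 72 h and 2 controls. For each library the authors deposited raw read counts by RefSeq gene, whole numbers in the files, beside RPKM and hg19 positions, per the file headers. Their deposited comparison table holds mean RPKM, a log2 ratio and p-values. STAR 2.4, DESeq2 and DESeq are named without roles, per the submitters' processing notes. Counter, strand setting and annotation release: not given in the sources used here.

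Rows were joined by RefSeq identifier, since 4 symbols differed between tables. Counts were tested with R 4.3.3 and edgeR 4.0.16: filterByExpr, TMM, the group alone, robust quasi-likelihood test, Benjamini-Hochberg adjustment over 13663 genes, threshold 0.05. The SE was derived from the F statistic. The procedure was tested on simulated data whose set changes were larger than those of the members that fell, with no trend by level. That test therefore does not speak for calls on changes as small as theirs. Values are given for members that passed, the member with the smallest p in each role group where none passed, and 7 central members. Of each pathway list up to 3 passing genes with the largest change are named, or the 1 with the smallest p. Library values of TOMM7, TIMM9, TIMM10B, TIMM23B, SAMM50, MTX2, PMPCB and CORO7-PAM16 fall outside this rule and were chosen after they were seen. The same holds for those of KRT7, KRT19, EPCAM, CDH1, COL1A2, LUM, PDGFRB, KCNQ1OT1, CEBPB, HSPA8, HSP90AA1 and DNAJC2, and of NCOA4. The members, lists and motifs were chosen with earlier results of these data known.

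The alternatives tried were library size alone, a replicate block, size factors from DESeq2, level-dependent (loess) scaling, no filter, 5 CPM in 2 libraries, DESeq2 1.42.0, limma-voom 3.58.1 and leaving out each library. No mitochondrially encoded gene is in the tables used, so these are not analysed here.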

Additional observations from a re-analysis of the deposited data

How the results depend on the processing

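Under 13 alternatives, all 13 members that fell kept a negative log2 fold change, and TIMM8B, TIMM10, TIMM13, TIMM44 and TOMM40 passed in every one. Leaving out 1 library gave 6 to 15 members lower, 395 to 1933 genes higher and 250 to 1597 lower in all. Library size alone gave 682 genes lower in all, and the cause was not tested. Replicate numbers share only a number: same-numbered libraries deviated with a correlation of -0.122, and the fit with the replicate block gave 1073 genes higher and 811 lower, with 11 members lower and a median of -0.27. The crossed pairing, chosen after seeing the data, gave 1551 higher and 1471 lower, with 14 members lower. Values near 0 changed sign in members that did not pass. With library size alone TOMM40L came to 0.040, PMPCB to 0.042 and MTX2 to 0.049. Level-dependent scaling gave PMPCB 0.035, and the stricter filter gave TOMM40L 0.020, PMPCB 0.022 and MTX2 0.030. TIMM23B has no value under the stricter filter. Leaving out 1 library gave ranges of -0.22 to 0.0032 for CHCHD4, -0.085 to 0.069 for TOMM40L, -0.052 to 0.38 for HSPD1, -0.046 to 0.024 for PMPCB, -0.14 to 0.11 for MTX2, -0.30 to 0.044 for GRPEL2, -0.29 to 0.083 for HSPE1, -0.25 to 0.0086 for TIMM17A and -0.69 to 1.51 for CORO7-PAM16. With 2 libraries a group, depths that differ by more than 3 times and p-values over these libraries alone limit what can be seen. The change of HSPA9, -0.21 with an SE of 0.078, did not pass here, and the reason was not tested.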
